A study of Mus musculus with 11 samples.

Results

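The 10 genes described here mark the making of new neurons, and they were followed in the hippocampus of mice exposed before birth to particulate matter (PM). They were Sox2, Nes, Mki67, Eomes, Neurod1, Sox4, Sox11, Dcx, Igfbpl1 and Tubb3, chosen by name from the 24421 gene rows of the deposited count files, and all 10 were present in each of the 11 files and were kept by the filter on low counts. In PM libraries Dcx, the doublecortin gene of immature neurons, fell 4.29-fold, and Mki67, the gene of the proliferation antigen Ki-67, fell 4.65-fold. Sox11 and Neurod1 fell by less. Tubb3, a neuronal tubulin, rose 2.00-fold, and the stem cell genes Nes and Sox2 rose 1.73-fold and 1.38-fold. Fold changes over all genes followed transcript length and GC content. Once that trend was removed the log2 fold changes were -0.74 for Dcx (-2.10 before), -0.93 for Mki67 (-2.22 before) and 0.35 for Tubb3 (1.00 before). Sox11, Neurod1 and Igfbpl1 then no longer passed the test, nor did Sox2 with a replicate block added. The genes of this group did not move in 1 direction: 5 rose, 4 fell and 1, Eomes, did not pass the test, and without PM replicate 2, 3 rose. Of all 14982 tested genes 69.1% passed it, 32.7% higher and 36.4% lower.

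Pregnant mice received either PM or normal saline (vehicle) through the nose on gestation days 9, 12 and 15, pups were born on day 21, and hippocampal RNA was taken from the offspring at 14 to 18 weeks of age. PM was given at 200 µg per kg. The labels carry a treatment protocol for only 1 of the 2 deposit sets described next, which also helped to tell them apart. That the dosing days, birth day and age hold for the other set too is an assumption. The series holds 5 vehicle libraries and 6 PM libraries in 2 sets, told apart by library numbers that restart, with replicates 1 to 3 of each group in the first and vehicle replicates 4 and 5 and PM replicates 4 to 6 in the second. The labels name no strain, genotype, sex or litter and do not say that libraries came from separate animals, so p-values measure only the spread between these libraries, which may be partly technical.

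New neurons arise in the adult mouse hippocampus in the dentate gyrus, where slowly dividing radial glia-like stem cells expressing Sox2 and Nes give rise to intermediate progenitors that express Eomes (Tbr2) and Neurod1. Those progenitors divide, which is when Mki67 is expressed, and their daughters become immature granule neurons with Dcx, Sox4, Sox11, Igfbpl1 and Tubb3. None of these genes belongs to that lineage alone: Sox2 is also expressed by astrocytes, Nes by vessel cells, Mki67 by any cycling cell, and Tubb3 and Neurod1 by mature neurons. In RNA of a whole tissue, fewer cells of a type and less RNA per cell cannot be told apart.

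The groups differed in how their reads were spread before any gene was compared. Gene counts were 6012116 to 12496651 in vehicle and 10938521 to 17763893 in PM libraries. Vehicle libraries had 60.9% to 62% of their counts not assigned to an annotated feature and PM libraries 18.8% to 34%, and the ribosomal RNA precursor Rn45s took 0.792% to 2.17% and 4.01% to 17% of gene counts. This difference followed the groups in both sets, so its part in the results below cannot be told apart from that of PM. Levels are given as CPM, counts normalised for library size with TMM factors, and where a library shows no count the true level could be as high as 3 counts, 0.169 to 0.499 CPM depending on the library, for counting error only.

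The 10 genes differ in size and build. By the GENCODE M21 annotation on GRCm38, Dcx (chromosome X, 143855842 to 143933311, minus strand) and Mki67 (chromosome 7, 135689784 to 135716361, minus strand) have the longest transcripts, of 9074 and 10061 bases in 7 and 14 exons. Sox11 (chromosome 12, 27334264 to 27342574, minus strand), Sox4 (chromosome 13, 28948919 to 28953713, minus strand) and Sox2 (chromosome 3, 34650405 to 34652461, plus strand) have 1 exon each. Tubb3 (chromosome 8, 123411424 to 123422015, plus strand) has the shortest longest transcript, of 1868 bases. The remaining genes are Nes (chromosome 3, 87971078 to 87980451, plus strand), Neurod1 (chromosome 2, 79452521 to 79456751, minus strand), Igfbpl1 (chromosome 4, 45809468 to 45826923, minus strand) and Eomes (chromosome 9, 118478212 to 118486132, plus strand).

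The promoters of the 2 genes that fell most, Dcx and Mki67, are shown beside those of Sox11, which fell, and Sox2, which rose, because the first pair moved alike and differ in the sequence before their starts. The sequences are from RefSeq (GRCm38.p6), run 5′ to 3′ on the gene's own strand and stop before the first annotated exon base, which leaves 158 of 250 bases for Dcx, with CCAAT or its reverse complement ATTGG in capitals. They lie at chrX:143933312-143933469 (minus strand), chr7:135716380-135716629 (minus), chr12:27342719-27342968 (minus) and chr3:34649745-34649994 (plus).
Dcx: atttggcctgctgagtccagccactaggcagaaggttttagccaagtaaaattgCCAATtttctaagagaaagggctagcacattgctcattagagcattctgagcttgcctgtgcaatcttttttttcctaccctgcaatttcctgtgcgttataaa
Mki67: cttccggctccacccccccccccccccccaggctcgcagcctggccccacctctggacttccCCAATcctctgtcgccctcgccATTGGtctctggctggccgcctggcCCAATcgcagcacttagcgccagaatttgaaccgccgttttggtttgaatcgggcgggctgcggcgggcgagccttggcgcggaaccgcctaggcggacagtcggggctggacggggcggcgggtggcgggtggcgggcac
Sox11: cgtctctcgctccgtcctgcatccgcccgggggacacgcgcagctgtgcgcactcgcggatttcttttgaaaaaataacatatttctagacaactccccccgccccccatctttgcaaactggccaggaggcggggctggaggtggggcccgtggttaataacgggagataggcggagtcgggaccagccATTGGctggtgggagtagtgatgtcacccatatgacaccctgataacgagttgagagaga
Sox2: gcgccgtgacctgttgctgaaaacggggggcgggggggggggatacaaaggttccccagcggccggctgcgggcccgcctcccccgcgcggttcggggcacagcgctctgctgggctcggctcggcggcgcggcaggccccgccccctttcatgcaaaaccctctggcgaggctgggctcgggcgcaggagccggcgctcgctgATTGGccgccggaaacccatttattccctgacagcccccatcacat
Base content was taken from the uncut 250-base windows. That of Dcx runs past the first annotated exon base, and those of Mki67, Sox11 and Sox2 end short of the gene starts given above. The Dcx window was 41.6% G or C, with a lower share in only 14.9% of all windows, and held 3 CpG dinucleotides. The same values were 71.6% and 24 for Mki67, 58% and 17 for Sox11 and 72% and 27 for Sox2. A promoter window was found for 9 of the 10 genes, and 7 of the 9 held CCAAT on either strand in the uncut 250 bases, a motif found in 33.8% of 32851 windows of that length. Mki67 held 3 copies, and Dcx, Sox11 and Sox2 held 1 each. TATAAA, in 12.4% of windows, was found only before Dcx, ACAAAG, a core bound by SOX proteins and in 16.5% of windows, only before Sox2, and CAGATG, an E-box in 14.4% of windows, before none of the 9. These matches are descriptions of sequence, on both strands.

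The largest fold changes of the 10 were those of Dcx and Mki67, which mark young neurons and division. Dcx, whose protein bundles microtubules in migrating and differentiating neurons, was 63.4, 62.9, 63.5, 75.7 and 61.8 CPM in vehicle replicates 1 to 5. In the 6 PM libraries it ran from 12.7 CPM through a median of 15.3 to 17.6 CPM, and the highest PM library lay far below the lowest vehicle library. The group means were 65.5 ± 5.76 CPM (SD, n = 5) and 15.3 ± 1.79 CPM (SD, n = 6), a log2 fold change of -2.10 (SE 0.10, edgeR quasi-likelihood test, Benjamini-Hochberg adjusted p = 2.63e-09). It was -0.74 once the trend with length and GC content was removed. Before that removal 4.76% of tested genes had a lower log2 fold change. Dcx is X-linked, and the libraries differed in Xist, with 14819 and 20726 counts in vehicle replicates 4 and 5, 2894 and 10382 in PM replicates 3 and 6 and 6 to 274 in the other 7. These Xist counts are not scaled for library size. PM replicates 3 and 6 held the highest Dcx values of their group, 16.7 and 17.6 CPM. Vehicle replicates 4 and 5 held the highest and the lowest Dcx value of their group, 75.7 and 61.8 CPM. The part of Xist level in this order was not tested.

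Mki67, the proliferation gene, showed the same separation at a lower level. It was 16.1, 12.5, 13.3, 16.0 and 13.4 CPM in vehicle replicates 1 to 5 and 2.25 to 4.07 CPM in the PM libraries, with a median of 2.91 CPM. No PM library came near the lowest vehicle value of 12.5 CPM. The means were 14.3 ± 1.67 CPM (SD, n = 5) and 3.06 ± 0.609 CPM (SD, n = 6), with a log2 fold change of -2.22 (SE 0.15, edgeR adjusted p = 3.71e-08), resting on 708 counts in vehicle and 263 in PM, and it was -0.93 once the trend with length and GC content was removed. The 6 PM libraries were all lower than the 5 vehicle libraries for Dcx, Mki67 and Sox11 and all higher for Tubb3, Nes and Sox2. That is 3 of the 10 genes in each direction, where 28.1% of tested genes were separated downward and 24.3% upward.

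**Figure D1:**
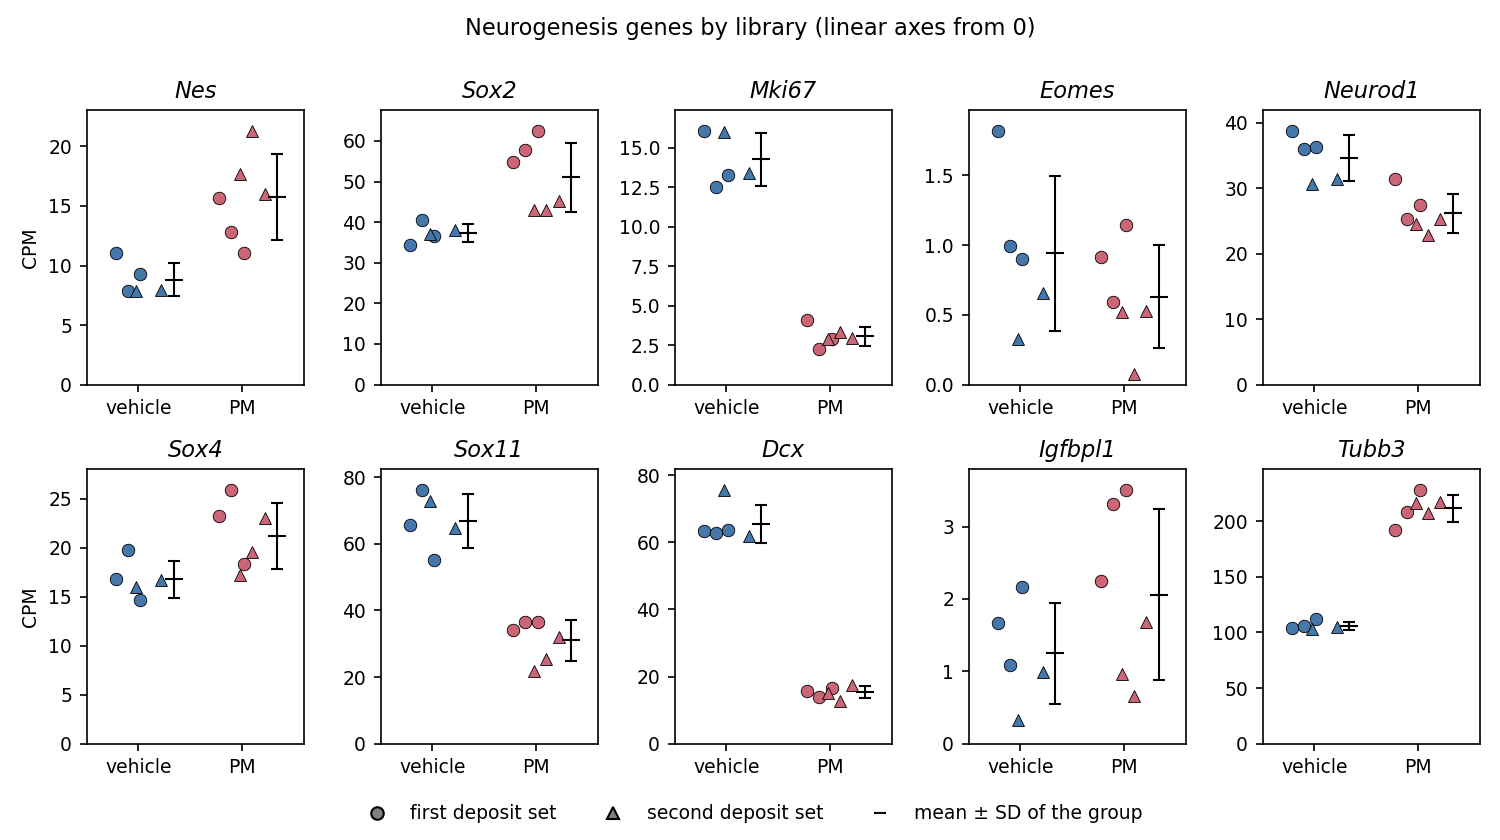
CPM of the 10 genes in each library on linear axes that start at 0, with vehicle libraries in blue, PM libraries in red, circles for the first and triangles for the second deposit set, and the mean ± SD of each group beside the points. Dcx, Mki67 and Sox11 sit lower in all 6 PM libraries and Tubb3, Nes and Sox2 higher, while the groups overlap for Eomes, Neurod1, Sox4 and Igfbpl1.

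Among the stem cell genes, Sox2, a transcription factor that maintains neural stem cells, was 34.3, 40.6, 36.5, 37.1 and 38.0 CPM in vehicle replicates 1 to 5. In PM libraries it ran from 42.9 CPM through a median of 49.97 to 62.5 CPM. The log2 fold change was 0.46 (SE 0.10, edgeR adjusted p = 0.000687), with means of 37.3 ± 2.28 and 51.0 ± 8.43 CPM. The PM libraries fell into the 2 sets here, with 54.7 to 62.5 CPM in replicates 1 to 3 and 42.9 to 45.2 CPM in replicates 4 to 6. Sox2 lies inside the longer non-coding gene Sox2ot on the same strand without sharing exon bases. Sox2ot itself, looked at after its values were seen, averaged 30.3 ± 1.79 CPM in vehicle (SD, n = 5) against 31.2 ± 6.89 CPM in PM (SD, n = 6), a log2 difference of 0.04 (SE 0.15, edgeR adjusted p = 0.822).

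Nes encodes nestin, an intermediate filament of neural stem cells and of some vessel cells. It was 11.01, 7.87, 9.31, 7.85 and 7.91 CPM in vehicle replicates 1 to 5 and 11.03 to 21.3 CPM in PM libraries, with a median of 15.9 CPM. The separation was narrow, since the lowest PM library, replicate 3 at 11.03 CPM, stood next to the highest vehicle library, replicate 1 at 11.01 CPM. The log2 fold change was 0.79 (SE 0.17, edgeR adjusted p = 0.000828), with means of 8.79 ± 1.39 and 15.8 ± 3.62 CPM.

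Of the genes of intermediate progenitors, Neurod1 fell and Eomes did not pass the test. Neurod1, a transcription factor that starts the granule neuron program and persists in mature granule neurons, was 38.8, 36.0, 36.3, 30.6 and 31.4 CPM in vehicle replicates 1 to 5. In PM libraries it ran from 22.9 CPM through 25.3 to 31.4 CPM, and 5 of the 6 lay below every vehicle library. The log2 fold change was -0.38 (SE 0.08, edgeR adjusted p = 0.000867), from 34.6 ± 3.50 to 26.2 ± 2.97 CPM. Neurod1 shares 201 exon bases with its neighbour Cerkl on the same strand. Cerkl fell too, from 3.06 ± 0.721 CPM in vehicle to 1.83 ± 0.641 CPM in PM libraries (log2 -0.74, SE 0.27, edgeR adjusted p = 0.0256). The part of this overlap in the Neurod1 values was not tested. Eomes, the T-box factor of dividing intermediate progenitors, was 1.82, 0.996, 0.904, 0.327 and 0.659 CPM in vehicle replicates 1 to 5 and 0.0728 to 1.15 CPM in PM libraries, with a median of 0.561 CPM. The groups overlapped, and with 52 counts in all vehicle and 55 in all PM libraries no difference was detectable at this depth (log2 fold change -0.51, SE 0.40, edgeR adjusted p = 0.271).

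Sox11 and Sox4 are related transcription factors of the SOXC group that act together in immature neurons, and here they moved in opposite directions, except that Sox11 stood at 0.01 once a trend with transcript length and GC content was removed. Sox11 was 65.5, 76.2, 55.2, 72.7 and 64.7 CPM in vehicle replicates 1 to 5 and 21.7 to 36.6 CPM in PM libraries, with a median of 33.0 CPM. Its log2 fold change was -1.10 (SE 0.13, edgeR adjusted p = 4.66e-06), from 66.9 ± 8.12 to 31.0 ± 6.18 CPM. Sox4 was 16.8, 19.8, 14.6, 16.0 and 16.7 CPM in vehicle replicates 1 to 5 and 17.2 to 25.9 CPM in PM libraries, with a median of 21.3 CPM and 3 of the 6 above every vehicle library. Its log2 fold change was 0.35 (SE 0.12, edgeR adjusted p = 0.0206), and without PM replicate 2 it no longer passed (0.28, adjusted p = 0.0614), nor without vehicle replicate 3 (0.29, adjusted p = 0.0564). Sox4 shares 2616 exon bases with a non-coding gene on the other strand, Gm26735, and no source used here states the strand setting, so reads of the pair may be mixed.

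Tubb3 and Igfbpl1 rose among the genes of young neurons. Tubb3, the neuronal class III beta-tubulin, was 104.0, 105.3, 112.0, 102.7 and 104.9 CPM in vehicle replicates 1 to 5 and 192.4 to 228.2 CPM in PM libraries, with a median of 212.2 CPM. The log2 fold change was 1.00 (SE 0.07, edgeR adjusted p = 4.58e-08), from 105.8 ± 3.62 to 211.7 ± 12.1 CPM, and the gap between the groups was wider than the range of either. Once the trend with length and GC content was taken out it was 0.35 over all libraries, and 0.18 in the second set of the joint fit, which did not pass (edgeR adjusted p = 0.0721). Igfbpl1, a secreted protein gene expressed by young neurons, was 1.66, 1.09, 2.17, 0.327 and 0.989 CPM in vehicle replicates 1 to 5 and 0.655 to 3.51 CPM in PM libraries, with a median of 1.97 CPM. The groups overlapped, and the log2 fold change of 0.80 (SE 0.31, edgeR adjusted p = 0.0362) rested on 68 vehicle and 183 PM counts. It no longer passed without vehicle replicate 1, 2 or 4 (adjusted p = 0.0727, 0.105 and 0.0746) or without PM replicate 2 or 3 (0.0759 and 0.0798).

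Ratios of counts within a library do not depend on its size, but they keep any trend with length and GC content, and a ratio of a falling to a rising gene widens what each shows alone. There were 0.567 to 0.737 Dcx counts for each Tubb3 count in vehicle and 0.0614 to 0.0812 in PM libraries. Sox11 counts per Sox4 count were 3.77 to 4.54 in vehicle and 1.26 to 2.0 in PM libraries. Mki67 counts per Sox2 count were 0.308 to 0.469 in vehicle and 0.0389 to 0.0778 in PM libraries. These 3 ratios did not overlap between the groups, which for all 3 follows from the ranges of the separate genes and adds nothing to them. Nes counts per Sox2 count overlapped, at 0.194 to 0.321 in vehicle and 0.176 to 0.496 in PM libraries, and the 3 highest ratios in PM came from the second set.

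**Figure D2:**
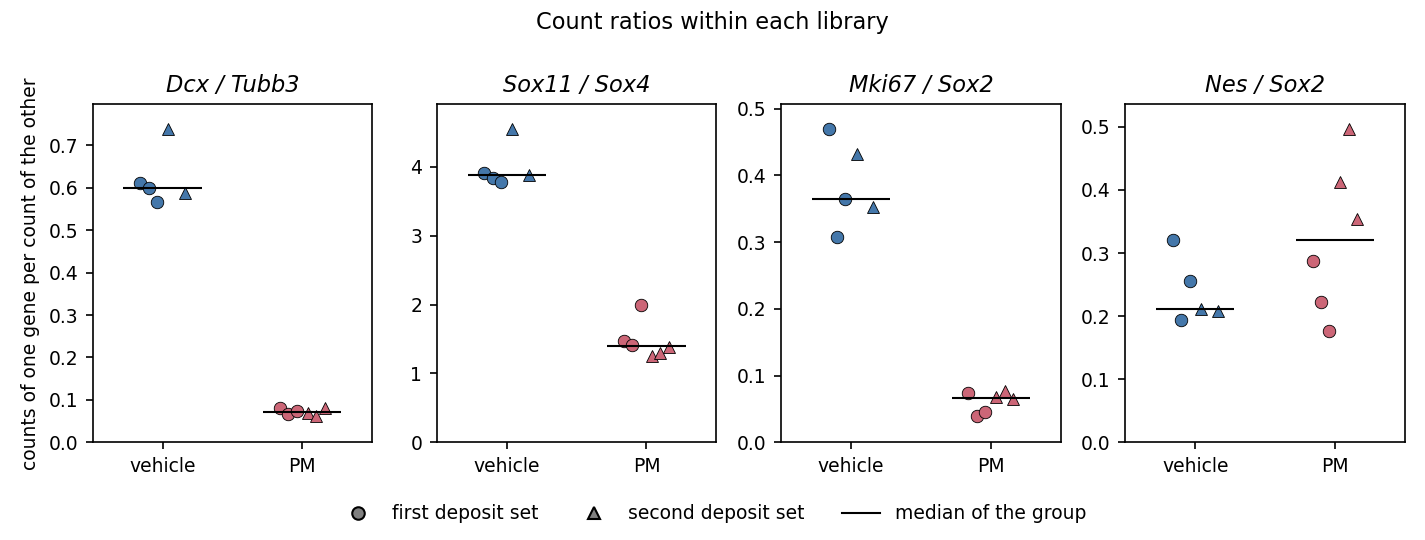
Counts of 1 gene per count of another in the same library, on linear axes from 0, with vehicle in blue, PM in red, circles for the first and triangles for the second deposit set, and a line at each group's median. The medians of Dcx per Tubb3 count were 0.598 in vehicle and 0.0714 in PM libraries, and those of Nes per Sox2 count were 0.211 and 0.321, with overlapping points.

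Levels of different genes were compared per kilobase of the longest annotated transcript. In vehicle libraries the order by mean CPM per kilobase was Tubb3 at 56.6, Sox2 at 18.1, Neurod1 at 12.7, Sox11 at 8.05, Dcx at 7.21, Sox4 at 3.50, Nes at 1.44, Mki67 at 1.42, Igfbpl1 at 0.435 and Eomes at 0.264. The ranges over libraries overlapped for Sox11 with Dcx, for Nes with Mki67 and for Igfbpl1 with Eomes, and for no other neighbours. In PM libraries Tubb3 at 113.3, Sox2 at 24.8 and Neurod1 at 9.59 kept their places at the top of the order. Sox4 at 4.43 then came before Sox11 at 3.74 and Nes at 2.57, and Dcx had moved behind all of them to 1.68. These levels keep the trend with length and GC content, and with it removed the log2 fold changes were 0.01 for Sox11 and -0.74 for Dcx. Ranges of neighbours overlapped between Sox4 and Sox11, Sox11 and Nes, and Nes and Dcx, and Igfbpl1 at 0.720 overlapped with Mki67 at 0.304, which overlapped with Eomes at 0.177.

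The sets allow the comparison of PM with vehicle to be made in each of them, in 1 joint fit. In the first set 5 of the 10 genes rose and 4 fell, where 71% of tested genes passed, 32.1% higher and 38.9% lower, and 3 rose when vehicle replicate 1 or 2 or PM replicate 2 was left out. In the second set 2 rose and 4 fell, where 64.8% passed, 32.3% higher and 32.5% lower. The sign of the fold change was the same in both sets for all 10. Dcx had log2 fold changes of -2.04 (SE 0.12) and -2.18 (SE 0.13), Mki67 of -2.19 (SE 0.20) and -2.25 (SE 0.23), and Tubb3 of 0.97 (SE 0.09) and 1.04 (SE 0.10) in the first and second set. Neurod1 also passed in both sets, at -0.40 and -0.36, but not in the first with no filter on low counts (-0.25, edgeR adjusted p = 0.0510), nor in the second with the trend removed (-0.07, edgeR adjusted p = 0.669) or without vehicle replicate 5 (-0.33, edgeR adjusted p = 0.0948). Sox4 and Igfbpl1 passed in the first set only (edgeR adjusted p = 0.0236 and 0.0340, against 0.183 and 0.388 in the second), and Nes in the first set (adjusted p = 0.0147) did not pass without vehicle replicate 2 or PM replicate 1 (0.0745 and 0.0756).

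The size of the PM effect differed between the sets for 2 of the 10 genes, Sox2 and Nes, where 29.6% of tested genes differed. The Sox2 log2 fold change was 0.65 (SE 0.09) in the first set and 0.22 (SE 0.11, edgeR adjusted p = 0.0901) in the second, a difference of -0.44 (SE 0.14, edgeR adjusted p = 0.0302). Nes went the other way, from 0.49 (SE 0.17) to 1.22 (SE 0.20), a difference of 0.73 (SE 0.26, edgeR adjusted p = 0.0456). Sox11 had -0.88 (SE 0.13) and -1.39 (SE 0.15), and its difference of -0.51 (SE 0.20, edgeR adjusted p = 0.0671) did not pass. The calls for Sox2 and Nes depended on single libraries. The Sox2 difference no longer passed when vehicle replicate 1, 3, 4 or 5 or PM replicate 2, 3, 4 or 5 was left out (adjusted p = 0.0535 to 0.122), and the Nes difference when any of those or PM replicate 6 was left out (adjusted p = 0.0573 to 0.150). Taking out the trend with length and GC content left the Nes difference at 0.29 (edgeR adjusted p = 0.341), and it did not pass either with DESeq2-type size factors, no filter on low counts or 4 abundant RNAs left out (edgeR adjusted p = 0.0675 to 0.0887). In these 4 settings the Sox11 difference did pass (edgeR adjusted p = 0.0135 to 0.0428), as it did without vehicle replicate 2 or PM replicate 6 (edgeR adjusted p = 0.0268 and 0.00861). The Y-linked counts of the vehicle libraries were 2126 to 2436 in replicates 1 to 3 and 0 in replicates 4 and 5. In the PM group replicates 3 and 6, of different sets, had 1 and 0 and the other 4 had 2140 to 2206. In the vehicle group the set and the level of Y-linked genes therefore cannot be told apart. The comparison of PM with vehicle within each set, and its difference between sets, is thus partly mixed with the level of Y-linked genes.

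**Figure D3:**
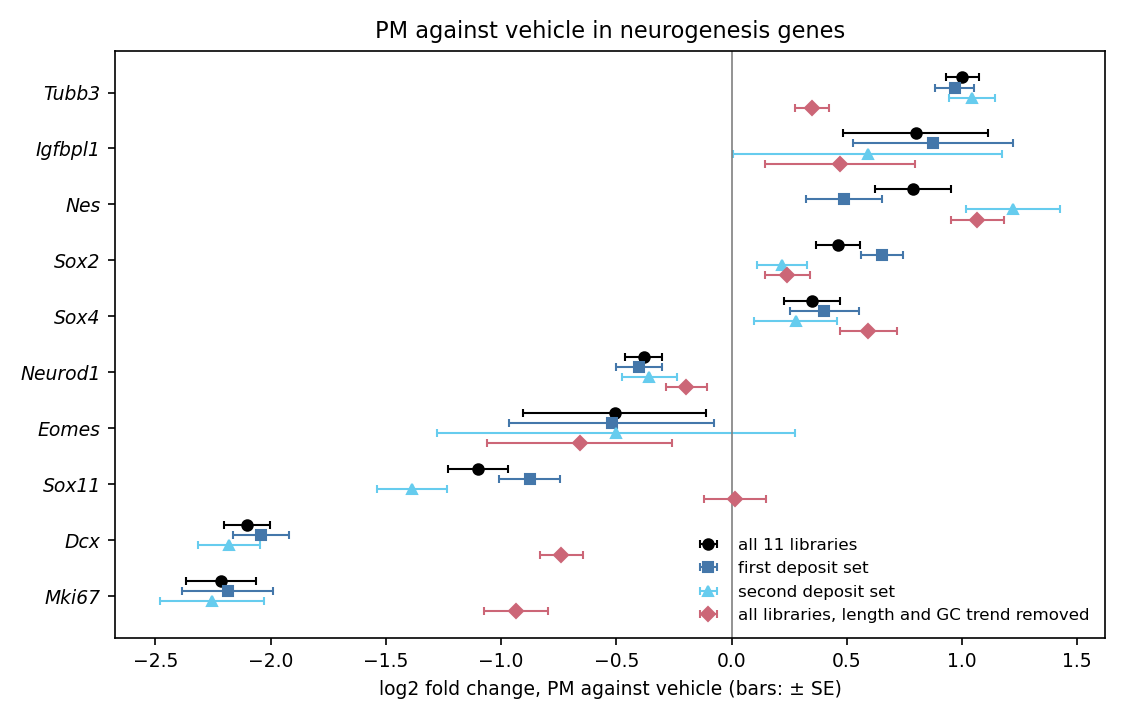
Log2 fold change of PM against vehicle with SE bars for the 10 genes, fitted over all 11 libraries (black), in each deposit set (blue squares and light blue triangles) and over all libraries after removal of the trend with transcript length and GC content (red diamonds). The sets give the same sign for each gene, and removal of the trend brings Sox11 to 0.01, Dcx to -0.74 and Tubb3 to 0.35.

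Across all tested genes the log2 fold change followed transcript length and GC content, and the 10 genes lay along both trends. Over 14857 genes with an annotated transcript the Spearman correlation of log2 fold change was -0.469 with length and 0.366 with GC content. Over the 10 genes it was -0.77 and 0.806, a description with points that share the same libraries. The 3 longest transcripts, those of Mki67, Dcx and Sox11 (8311 bases), had the 3 lowest fold changes, and the shortest, that of Tubb3, had the highest. Dcx had the lowest GC content of the 10, 40.6%, and Tubb3 the highest, 57.9%. Nes stood apart, with a transcript of 6126 bases, 55.5% GC and a log2 fold change above 0.

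When a smooth trend with length and GC content was removed within each library before the same edgeR test, the calls changed for several of the 10 genes. Dcx kept a lower level at -0.74 (SE 0.09, edgeR adjusted p = 1.07e-05) and Mki67 at -0.93 (SE 0.14, edgeR adjusted p = 4.89e-05). Sox11 went to 0.01 (SE 0.13, edgeR adjusted p = 0.936) and Neurod1 to -0.20 (SE 0.09, edgeR adjusted p = 0.0686), so 2 genes fell in place of 4. Tubb3 went to 0.35 (SE 0.07, edgeR adjusted p = 0.000913) and Sox2 to 0.24 (SE 0.10, edgeR adjusted p = 0.0403). With a replicate block added Sox2 no longer passed (0.25, edgeR adjusted p = 0.115). Nes and Sox4 gained, to 1.07 (SE 0.12, edgeR adjusted p = 2.75e-06) and 0.59 (SE 0.13, edgeR adjusted p = 0.000864), and Igfbpl1 no longer passed at 0.47 (edgeR adjusted p = 0.221). Over all genes the calls went from 4904 higher and 5450 lower to 5402 higher and 4232 lower.

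**Figure D4:**
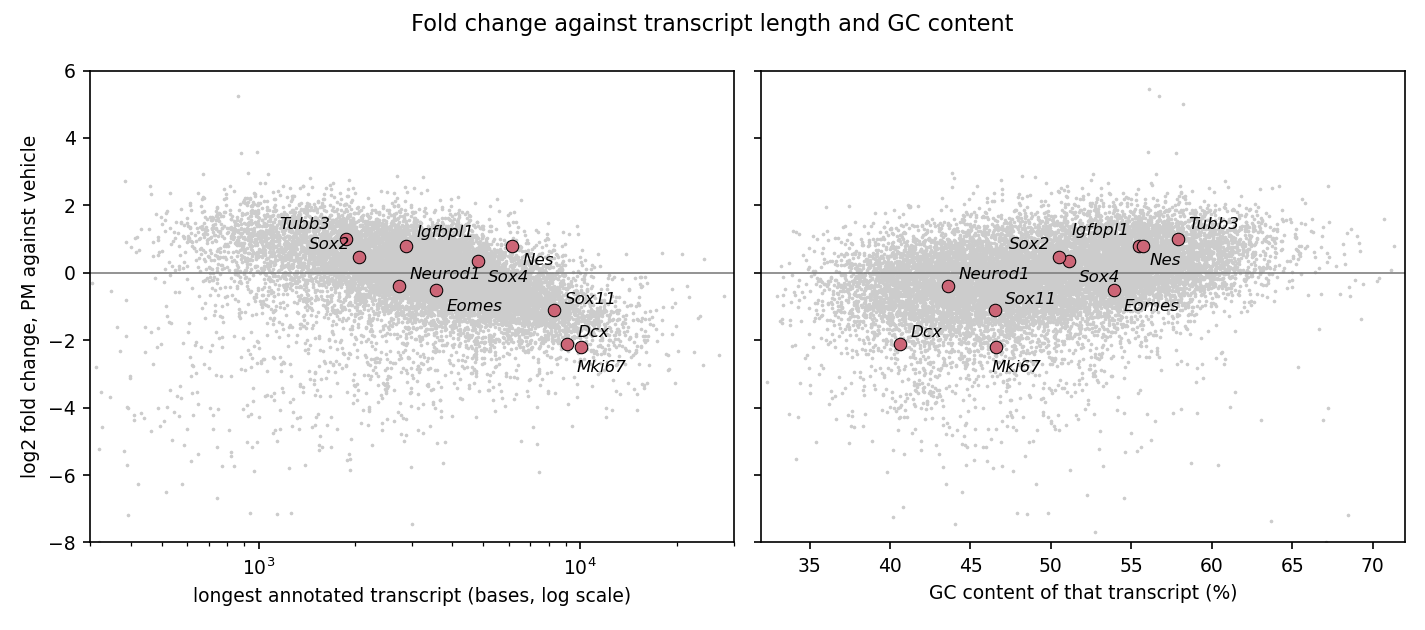
Log2 fold change of PM against vehicle plotted against the length of the longest annotated transcript (log scale, left) and its GC content (right), for all tested genes (grey, those beyond the axes not drawn) and the 10 genes (red, named). Mki67 and Dcx lie at the long end near -2, Tubb3 at the short, GC-rich end at 1.00, and Nes lies above the other named long transcripts.

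Related genes were taken from 6 lists, whose names do not mean that a gene belongs to that step or cell alone. They were read beside the 69.1% of all genes that passed and the median log2 fold change of all genes, -0.04. Of 18 radial glia-like stem cell genes 9 rose, 4 fell and 5 did not pass, with a median of 0.36. Id3 (1.62), an inhibitor of differentiation, Hes5 (1.51), a Notch target that keeps cells undifferentiated, and Vim (1.27), the vimentin gene of radial glia and reactive astrocytes, rose. Sox1 (-0.96), a relative of Sox2, fell. With the trend removed 11 rose and 5 fell, and these 4 kept their direction and call, with Id3 at 1.02 and Hes5 at 0.79.

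Of 15 transcription factors of neuronal progenitors and young hippocampal neurons that could be tested, 3 rose, 6 fell and 6 did not pass, with a median of -0.05. Prox1, the factor that specifies dentate granule neurons, went from a mean of 145.2 CPM to 36.2 CPM, a fold change close to that of Dcx (log2 -1.97, SE 0.12, edgeR adjusted p = 1.61e-08). Tbr1, a factor of glutamatergic neurons that follows Eomes in their development, went from a mean of 116.6 CPM to 37.9 CPM (log2 -1.63, SE 0.12, edgeR adjusted p = 7.42e-08). Tbr1 was -1.63 and Prox1 -0.88 with the trend removed. Bcl11a (-1.02) and Bcl11b (-1.14), zinc finger factors of postmitotic neurons, fell too, but not with the trend removed (-0.21 and -0.23, edgeR adjusted p = 0.0926 and 0.0792).

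Of 21 genes of immature neurons and neurite growth 8 rose, 9 fell and 4 did not pass, with a median of -0.34. The cell adhesion gene Ncam1 fell (-1.003), as did Plxna4 (-1.14), a semaphorin receptor gene, and Dclk1 (-0.94), a kinase related to doublecortin, while the tubulin gene Tubb2b rose (0.86). With the trend removed 6 rose and 5 fell, Plxna4 stood at 0.09 and Dclk1 at 0.14, neither passing, and Ncam1 fell by 0.31.

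Of 21 tested cell cycle and DNA replication genes 6 rose, 6 fell and 9 did not pass, with a median of 0.10. Pcna (0.57), the polymerase clamp, and Mcm5 (0.74), a replicative helicase subunit, rose, and Ccna2 (-1.36), the cyclin of S phase and mitosis, and Ccnd2 (-0.44), a G1 cyclin, fell. Before the trend was removed none of these 4 was as far from 0 as Mki67. With the trend removed 5 genes of the list rose and 3 fell, among them Ccna2, which at -1.22 (edgeR adjusted p = 0.00196) was then farther from 0 than Mki67 at -0.93, and Ccnd2 stood above 0 at 0.35 (edgeR adjusted p = 0.0120). Cdk1, Ccnb1, Aurkb and Bub1 had too few counts to be tested.

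Of 14 Notch pathway genes 4 rose, 5 fell and 5 did not pass, with a median of -0.09. The receptors Notch2 (-1.39) and Notch1 (-0.97) fell together with Rbpj (-0.98), the factor through which they act, and the modifier Mfng rose (1.33). With the trend removed the 4 were smaller but still passed, at -0.45, -0.31, -0.24 and 0.68. With a replicate block added as well, Rbpj did not pass (-0.219, edgeR adjusted p = 0.0890). Of 14 tested tubulin genes other than Tubb3, 8 rose, 1 fell and 5 did not pass, with a median of 0.54, and Tuba1b (1.43), Tubb4b (1.01), Tubb2b (0.86) and Tubb5 (0.65) had the smallest p. With the trend removed 4 tubulin genes rose and 2 fell, with a median of 0.04, and Tuba1b was 0.87, Tubb2b 0.61, Tubb4b 0.46 and Tubb5 0.43. Tubulin genes are near copies of one another in their coding parts, so counts assigned to single members are uncertain.

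**Figure D5:**
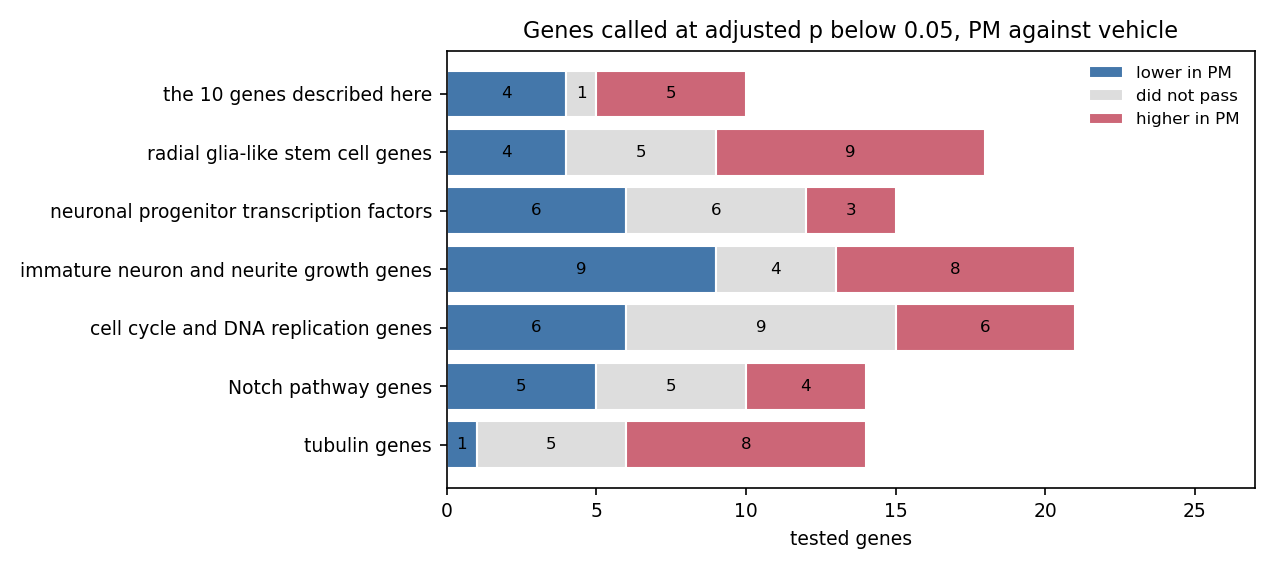
Number of tested genes lower in PM (blue), not past the test (grey) and higher in PM (red) among the 10 genes and in the 6 lists, at an edgeR adjusted p below 0.05 over all tested genes. The tubulin list has 8 genes higher and 1 lower, while the neuronal progenitor list has 3 higher and 6 lower.

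Markers of other cells were read beside the 69.1% of all genes that passed. The share of tested markers that passed was 54.5% for endothelial cells, 66.7% for both the interneuron lineage and oligodendrocyte precursors, 72.7% for microglia, 77.8% for pericytes, 84.6% for mature neurons and 90.9% for astrocytes, so several lists lay near the background. Their part in the results was not tested, and their calls and sums keep the trend with transcript length and GC content. Of 12 markers of the interneuron lineage and of subventricular neuroblasts, which also express Dcx and Sox11, 8 fell and 4 did not pass. Their summed levels were 656.8 to 726.3 CPM in vehicle and 309.1 to 474.4 CPM in PM libraries. The highest of them in vehicle libraries were Gad1 (mean 228.7 CPM), Gad2 (196.7 CPM) and Etv1 (171.8 CPM). Gad1 did not pass (log2 -0.10, edgeR adjusted p = 0.336), while Gad2 and Etv1 fell. Of 5 Cajal-Retzius markers 4 fell (169.3 to 200.9 against 66.3 to 75.6 CPM), and of 12 markers of oligodendrocyte precursors, which also divide, 3 rose and 5 fell (528 to 580.6 against 312.3 to 395.3 CPM). The markers with the highest vehicle means in these lists, Reln (113.7 CPM) and Tnr (193.9 CPM), both fell and have long transcripts, of 11699 and 12202 bases. Beside Nes, 6 of 11 endothelial markers rose and 5 did not pass (184.7 to 217.3 against 216.9 to 409.9 CPM), and 5 of 9 pericyte and smooth muscle markers rose and 2 fell (135.1 to 164.1 against 170.4 to 346 CPM). Beside Sox2, 7 of 11 astrocyte markers rose and 3 fell, while their summed level was lower (6979 to 7451 against 3359 to 5740 CPM). Slc1a2 made up most of that sum. Its mean fell from 5757 CPM (vehicle) to 2607 CPM (PM), and its transcript is long, at 11595 bases. The lower sum therefore says little about the other astrocyte markers. Of 11 microglial markers 8 rose and 3 did not pass (267.7 to 292.8 against 346.5 to 522.7 CPM).

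Of 13 markers of mature granule and pyramidal neurons 8 rose and 3 fell, and their summed level overlapped, at 12620 to 14040 CPM in vehicle and 11520 to 14070 CPM in PM libraries, so markers of hippocampal neurons were abundant in both groups. Ependymal markers had 1 of 7 lower (16.6 to 25.2 against 9.83 to 31.95 CPM) and choroid plexus markers 1 of 8 lower, with sums from 83.6 to 1369 CPM in vehicle and from 38.2 to 2537 CPM in PM libraries. No marker listed was at 0 in every library.

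Likeness between genes was measured as the Pearson correlation of log2 CPM over the 11 libraries after the mean of each group in each set was taken away, so that shared PM differences do not enter. It leaves few degrees of freedom, and the highest value over all tested genes is high by selection. The genes most like Dcx were Ttc21b and Chrm5 (both 0.934) and Slc30a6 (0.933), and those most like Mki67 were Colgalt1 (0.949), Tle2 (0.946) and Arid2 (0.945). Sox2 was most like Pole4 (0.993), Zfp36l1 (0.982) and Mgmt (0.981), and the genes most like Nes included Xdh (0.981) and Gbp5 (0.975). Sox11 paired with C1galt1 (0.978), Slc38a2 (0.964) and D430036J16Rik (0.934), and Sox4 with Dck (0.975), Plscr4 (0.964) and Smad5 (0.958). Tubb3 paired with Prkra (0.975), Tbccd1 (0.974) and Tmem199 (0.967), and Neurod1 with Traip (0.964), Slc44a5 (0.952) and Ceacam1 (0.946). Igfbpl1 paired with Coa4 (0.975), Zfp65 (0.947) and Mcf2 (0.943), and Eomes with Ints8 (0.971), Bbs10 (0.964) and Etnk2 (0.964). None of the 10 genes was among the 3 most like another of them.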

How the data were processed

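RNA of the hippocampus was sequenced in 11 libraries, 5 of vehicle and 6 of PM, as paired-end reads after removal of ribosomal RNA, per the labels' protocols, while the labels' molecule field names polyA RNA. The authors deposited 1 file per library with a raw whole-number count for each gene symbol. The submitters' processing notes name FastQC 0.11.9, Trimmomatic 0.36, STAR, SAMtools 1.9, Picard 2.9.2, HTSeq 0.9.1 and the builds mm10 and hg19. Summary rows that name no gene stayed out of library sizes and tests, and those without a feature made up 18.8% to 62% of counts.

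Counts were tested in edgeR 4.0.16 (R 4.3.3) with filterByExpr (minimum count 10, 14982 genes kept), TMM scaling and the robust quasi-likelihood test, two-sided, with the deposit set as covariate. P-values were adjusted by Benjamini-Hochberg over all tested genes, with a threshold of 0.05. Effects within sets and their difference came from 1 model with a term for each group in each set. The SE was derived from the log2 fold change and its F statistic. The trend removal fitted a spline with 5 degrees of freedom to log transcript length and GC content in each library and used it as an offset, for the 99.2% of tested genes with both values. Gene models came from GENCODE M21 (GRCm38), to which 98.5% of symbols matched, and promoters from RefSeq.

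The 10 genes and all lists were chosen with earlier results of these data known. The text names all 10, up to 4 genes of smallest p from each list of related genes, and for each of the 10 the 3 genes of highest likeness, of which 1 is not reported here. Steps were tested on simulated counts with 200 changed genes. No pair of replicates of a group agreed within sampling noise (lowest chi-square per degree of freedom 2.01). Alternatives were DESeq2 1.42.0, other size factors, other filters, no set covariate, each set alone, a replicate block, trend removal, library sizes without 4 abundant RNAs, and leaving out each library.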

Additional observations from a re-analysis of the deposited data

Results flagged for a closer look

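Of 20 groups of libraries examined, 5 vehicle or 6 PM libraries for each of the 10 genes, 2 held a value far from the rest, where chance marks about 1 in 20. Dcx in vehicle replicate 4, at 75.7 CPM, lay above the other 4 vehicle libraries by 0.872 of the group's whole range. Tubb3 in vehicle replicate 3, at 112.0 CPM, lay above the other 4 by 0.72 of the range. Neither reached the PM libraries of its gene.

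The PM effect differed between the deposit sets by the test of the difference for 2 genes. For Sox2 the log2 effect in the second set minus that in the first was -0.4354, and for Nes it was 0.7334. Once the trend with length and GC content was taken out the Nes difference was 0.29 and did not pass (edgeR adjusted p = 0.341).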

How the results depend on the processing

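Dcx, Mki67, Nes and Tubb3 kept their direction and their call in all 22 alternatives of the comparison over all libraries or of 1 set alone, with log2 fold changes of -2.17 to -0.74, -2.36 to -0.91, 0.58 to 1.23 and 0.35 to 1.09. Each set alone left Sox2 at 0.75 and 0.23. In the second set alone 3 of the 10 genes rose. With the length and GC trend removed 2 fell, and with the trend removed and a replicate block 3 rose and 2 fell. In the second set of the joint fit with the trend removed 1 rose and 2 fell, and Tubb3 lost its call (0.18, adjusted p = 0.0721). The sign turned under trend removal for Sox11 (0.0137 over all libraries, 0.271 for set 1 by itself) and, within set 2, for Sox2 (-0.0424) and Igfbpl1 (-0.0346). Among named related genes it turned for Plxna4 (0.0945, and 0.0805 with the block), Dclk1 (0.14 and 0.14) and Ccnd2 (0.35 and 0.36). Leaving out 1 library at a time gave 3 to 5 genes higher, 3 to 5 higher in the first set, and 0 to 3 that differed between sets. The count fell to 3 without PM replicate 2, and in the first set without vehicle replicate 1 or 2 or PM replicate 2. Eomes in the second set ranged from -0.86 to 0.16, above 0 without vehicle replicate 5 (0.16) or PM replicate 5 (0.01). The causes were not tested. Of 506 values of 23 named related genes, 13 changed direction or call.

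With the replicate block 4 of the 10 genes rose and 4 fell, and the call lost was that of Igfbpl1 (0.71, adjusted p = 0.109). No pairing by number was seen: same-numbered libraries of the 2 groups had residual correlations of -0.176 to -0.00501. In the second set vehicle replicates 4 and 5 are the only vehicle libraries, so their residuals mirror each other. The check therefore rests on few values. With the block and the trend removed, 3554 of all genes were lower, against 5450. Depth limits Eomes and Igfbpl1, with 52 and 68 counts in the vehicle libraries.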
